A study of Mus musculus with 9 samples.

Results

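The genes described here are 10 mouse genes of milk protein and of the milk fat globule, the droplet in which the mammary gland secretes fat. They were chosen by name: *Csn2*, *Csn3*, *Wap*, *Ltf*, *Lcn2*, *Btn1a1*, *Xdh*, *Mfge8*, *Muc1* and *Plin2*, which are 10 of the 55228 rows of a table of RNA-seq read counts. The table covers 9 cultures of HC11, a mammary epithelial line from a BALB/c mouse that serves as a model of lactogenic differentiation, and the study used it to ask how losing the planar cell polarity gene *Vangl2* alters expression. The samples are 3 cultures of the parental cells (*WT*) and 3 each of *KD1* and *KD2*, which the labels call *Vangl2* knockout 1 and 2. Each edited line grew from a single colony after nucleofection with a CRISPR/Cas9 guide against *Vangl2* and a repair template carrying stop codons, so each is 1 clone, whereas *WT* is the uncloned parental population. All 9 cultures were undifferentiated and in growth medium that held FBS at 10%, EGF at 10 ng/mL and insulin at 5 µg/mL, without the prolactin and dexamethasone that induce milk genes in these cells.

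During lactation, prolactin acts through its receptor and the kinase JAK2 on STAT5, and STAT5 with the glucocorticoid receptor, C/EBPβ and ELF5 drives the genes of the caseins and whey proteins. *Csn2* and *Csn3* encode β-casein and κ-casein, of which κ-casein keeps the casein micelle in solution, and *Wap* encodes whey acidic protein. *Ltf* (lactotransferrin) and *Lcn2* (lipocalin 2) encode secreted proteins of milk and of inflamed epithelia that withhold iron from bacteria. *Plin2* coats the lipid droplet, *Btn1a1* (butyrophilin) and *Xdh* (xanthine oxidoreductase, which also has a structural role) join it to the apical membrane at secretion, and *Mfge8* and *Muc1* lie on the surface of the secreted globule.

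STAT5 binds DNA at the GAS element TTCNNNGAA, so the RefSeq promoters of these genes (GRCm38.p6, 250 bases before to 50 bases after the annotated start) were searched for it on both strands, and for the C/EBP element TTGCNNCAA and the kappa-B consensus of NF-κB. Promoters of 7 of the 10 genes were matched, those of *Csn2*, *Wap*, *Ltf*, *Lcn2*, *Mfge8*, *Muc1* and *Plin2*. Of these, *Csn2* held 1 GAS match, TTCTTGGAA, which starts 93 bases before the RefSeq start, and *Plin2* held 1 kappa-B match. Gene spans given further on come from another annotation, GENCODE. By those spans, this GAS match and the whole *Lcn2* promoter window lie inside the gene. Among all 32851 promoters, 8.30% held GAS, 2.08% the C/EBP element and 8.46% the kappa-B consensus. The promoters shown are those of *Csn2*, the milk gene with a GAS match, of *Lcn2* and *Ltf*, whose counts differed most between the lines, and of *Plin2*. Capitals mark the matches, which do not overlap one another.
*Csn2*, chr5:87699376-87699675, minus strand: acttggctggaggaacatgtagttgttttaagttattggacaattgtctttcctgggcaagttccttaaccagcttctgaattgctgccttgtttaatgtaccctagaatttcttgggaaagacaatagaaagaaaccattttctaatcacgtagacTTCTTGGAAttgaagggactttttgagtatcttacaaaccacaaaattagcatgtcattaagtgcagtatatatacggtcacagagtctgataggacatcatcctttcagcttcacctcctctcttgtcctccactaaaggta
*Lcn2*, chr2:32387690-32387989, minus strand: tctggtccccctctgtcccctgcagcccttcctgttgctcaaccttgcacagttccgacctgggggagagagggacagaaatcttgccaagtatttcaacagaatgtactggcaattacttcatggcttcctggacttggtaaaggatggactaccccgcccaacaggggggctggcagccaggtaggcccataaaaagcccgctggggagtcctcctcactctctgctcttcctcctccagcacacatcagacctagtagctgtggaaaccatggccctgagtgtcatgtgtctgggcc
*Ltf*, chr9:111019042-111019341, plus strand: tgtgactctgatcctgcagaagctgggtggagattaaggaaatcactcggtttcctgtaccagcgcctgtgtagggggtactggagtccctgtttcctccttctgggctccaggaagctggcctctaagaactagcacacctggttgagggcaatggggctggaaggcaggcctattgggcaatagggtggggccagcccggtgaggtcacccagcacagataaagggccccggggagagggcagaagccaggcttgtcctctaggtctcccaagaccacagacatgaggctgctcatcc
*Plin2*, chr4:86670010-86670309, minus strand: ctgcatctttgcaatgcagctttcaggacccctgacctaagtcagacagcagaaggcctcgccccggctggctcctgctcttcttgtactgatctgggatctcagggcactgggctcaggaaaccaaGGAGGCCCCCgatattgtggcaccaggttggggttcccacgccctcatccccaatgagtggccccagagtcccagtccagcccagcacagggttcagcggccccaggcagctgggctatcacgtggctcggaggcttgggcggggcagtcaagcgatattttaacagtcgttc

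Libraries held 19231428 to 28360592 counts, and 15253 genes passed edgeR's expression filter and were tested in 1 fit of all cultures. A floor of 3 counts in a library, taken as the least it can show, was 0.0998 to 0.154 CPM (each count relative to the TMM-adjusted total of its library), and it covers counting error only. The targeted transcript, *Vangl2*, had 66, 99 and 86 counts in *WT*, 75, 48 and 69 in *KD1* and 90, 118 and 90 in *KD2*, so its level separated *KD1* from *WT* and did not check the label of *KD2*. *KD2* replicate 3 differed more from the other *KD2* cultures (chi-square per degree of freedom 17.4 and 22.1) than these did from each other (1.74), and *WT* replicate 1 stood apart from the other *WT* cultures in the same way (13.1 and 10.7, beside 3.38), so values without each of these libraries are given where they bear on a result. Epithelial markers were high in every culture, with a summed 1500 to 1650 CPM in *WT*, 1990 to 2060 in *KD1* and 1250 to 1450 in *KD2* over 6 genes, of which *Krt19* was at 0 throughout. The 5 basal markers summed to 4180 to 4670 CPM in *WT*, 4970 to 5090 in *KD1* and 2230 to 2880 in *KD2*. Against *WT*, 4 of them fell in *KD2* and 1, the scarce *Acta2*, rose, from a mean of 0.165 to 1.54 CPM. Fibroblast markers, 5 genes, summed to 15.4 to 20.5, 7.98 to 9.96 and 22.6 to 24.4 CPM, and they did not move together. Mean *Pdgfra* was 7.95, 8.39 and 16.4 CPM in *WT*, *KD1* and *KD2*. *Col1a1* was at 7.03, 0.571 and 4.37 CPM and *Col3a1* at 3.03, 0.0131 and 2.72 CPM.

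Separated at 3 counts per culture, 6 of the 10 genes were above the floor in every culture, 3 were at or under it in every culture and 1, *Ltf*, was above it in *KD1* cultures only. The 3 at the floor were the casein and whey protein genes. *Csn2* (ENSMUSG00000063157, chromosome 5, 87692624 to 87699630) had 0, 1 and 0 counts in *WT*, none in *KD1* and 0, 0 and 1 in *KD2*. *Wap* (ENSMUSG00000000381, chromosome 11, 6635482 to 6638637) had 0, 0 and 1 counts in *WT*, none in *KD1* and 1, 0 and 0 in *KD2*. *Csn3* (ENSMUSG00000001622, chromosome 5, 87925579 to 87932665) had 2 counts in each *WT* culture, none in *KD1* and 0, 1 and 0 in *KD2*. *Csn2*, *Csn3* and *Wap* failed the expression filter and no fold change is given for them, because both sides of each comparison were at or under the floor. Any difference between the lines in *Csn2* or *Wap* was not detectable at this depth, and both transcripts lay below 0.154 CPM in every culture. Without a filter on low counts, *Csn3* alone of these 3 passed the threshold in edgeR, with an adjusted p of 0.042 for *KD1* against *WT*, and this rests on 6 counts against 0.

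The rest of the casein cluster was equally silent. It spans 87666208 to 87932665 on chromosome 5 and holds 14 genes of the table, 7 of them protein-coding, and all 14 were at or under the floor in every culture, with 10 counts in all. *Csn1s1* and *Csn1s2b*, the genes of an αS1-casein and an αS2-casein-like protein, had no count, and *Csn1s2a* had 1. *Lalba*, which encodes α-lactalbumin for lactose synthesis, had no count either. Over 5 caseins, *Wap* and *Lalba*, the 217627666 counts of the series held 12, with 9 in *WT*, 0 in *KD1* and 3 in *KD2*. The nearest tested protein-coding genes on either side of the cluster, *Ythdc1* and *Utp3*, lie 856 kb and 622 kb away from *Csn2* and *Csn3*. They were picked among tested genes, so their expression was fixed by the filter and is no result about the region.

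**Figure D1:**
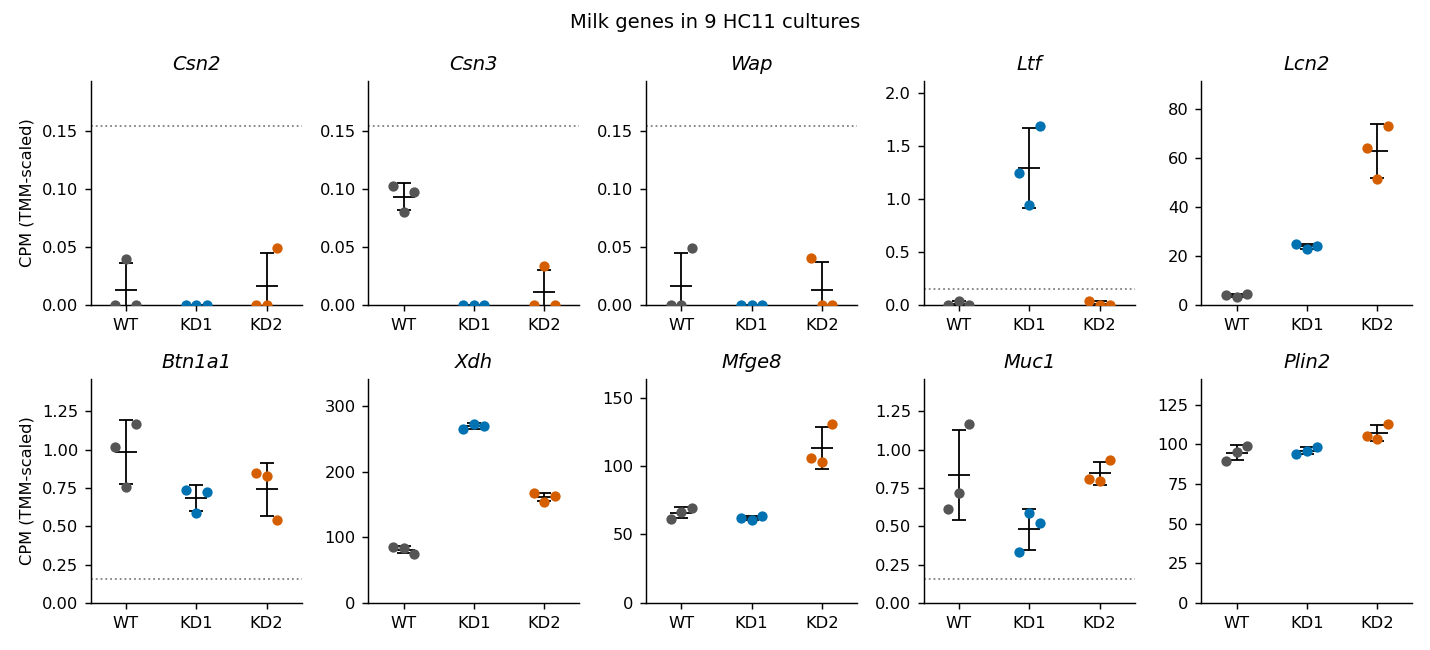
CPM (TMM-scaled, vertical axis from 0) of each milk gene in the 9 cultures by line; points are cultures, bars the mean and SD of 3, and the dotted line, drawn where values are under 2 CPM, is the highest floor of 3 counts (0.154 CPM). *Csn2*, *Csn3* and *Wap* lie under the line in every culture, *Ltf* is above it in *KD1* alone, and *Lcn2* climbs from about 4.00 CPM in *WT* to 62.8 CPM in *KD2*.

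The secreted iron-binding genes differed most. *Lcn2* (ENSMUSG00000026822, chromosome 2, 32384633 to 32388252) had 79, 83 and 95 counts in *WT*, 673, 582 and 600 in *KD1* and 1585, 1544 and 1488 in *KD2*. The lines did not overlap, and *KD2* was the highest. *WT* cultures averaged 4.00 ± 0.660 CPM (SD, n = 3), *KD1* cultures 24.0 ± 0.998 and *KD2* cultures 62.8 ± 10.9. *Lcn2* rose 6.04-fold in *KD1* (log2 fold change 2.59, standard error 0.15, adjusted p = 3.4e-09 by quasi-likelihood in edgeR, Benjamini-Hochberg method) and 15.8-fold in *KD2* (3.98, standard error 0.144, adjusted p = 5.0e-11, the same test). *KD2* exceeded *KD1* 2.61-fold (1.39, standard error 0.113, adjusted p = 9.3e-08), and without *KD2* replicate 3, the highest culture, the *KD2* log2 fold changes were 3.86 against *WT* and 1.26 against *KD1*. Without *WT* replicate 1 the values against *WT* were 2.61 in *KD1* and 3.99 in *KD2*. In these bulk samples, a change in the number of cells that express a gene and a change in RNA per cell cannot be told apart.

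*Ltf* (ENSMUSG00000032496, chromosome 9, 111019271 to 111042767) followed another pattern. It had 0, 1 and 0 counts in *WT*, 34, 24 and 42 in *KD1* and 1, 0 and 0 in *KD2*, so *KD1* stood apart and neither other line left the floor. *Ltf* reached 1.30 ± 0.377 CPM (SD, n = 3) in *KD1*, at least 9.27-fold higher than *WT* and at least 10.6-fold higher than *KD2* when the floor is taken per library (adjusted p = 2.2e-06 and 8.2e-07, the same edgeR test). It passed the expression filter through *KD1* only, that is, fewer than 3 cultures of the other lines reached the count the filter asks for. A gene that passes in that way is selected for being higher in 1 line, so its difference is not independent of the filter. Such genes are left out of the counts and medians given further on, for the milk genes and for the lists alike. *Lcn2* and *Ltf* are also made by neutrophils. Of 10 neutrophil and macrophage markers, 7 were at or under the floor in every culture, including *Ptprc*, *Ly6g*, *Mpo* and *Elane*, and *Adgre1* and *Retnlg* had no count. The 10 summed to 0.195 to 0.320 CPM in *WT*, 0.354 to 0.664 in *KD1* and 0.344 to 0.499 in *KD2*, and the largest count, 13, was of *Csf1r* in a *KD1* culture.

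Other epithelial genes of the acute phase and of antimicrobial defence were read from a list of 20, of which 19 were in the table and 13 were tested. Of these, *S100a9* passed the filter through *KD1* only and *Hp* and *Orm1* through *KD2* only, which leaves 10. In *KD1*, 5 of the 10 rose and 4 fell, where 26.9% and 30.0% of all genes tested did, with a median log2 fold change of 0.72 beside -0.03 over all genes. In *KD2*, 7 rose and 1 fell, where 34.0% and 33.3% of all genes did, with a median of 1.09 beside 0.01. *S100a9*, a calcium-binding alarmin subunit, had the pattern of *Ltf*: 0, 1 and 1 counts in *WT*, 37, 21 and 21 in *KD1* and none in *KD2*, so that *KD1* exceeded *WT* by at least 7.23-fold (adjusted p = 1.8e-05, the same test). *Lbp*, the lipopolysaccharide-binding protein, went in opposite directions, with 22, 26 and 33 counts in *WT*, 1, 1 and 2 in *KD1* and 148, 190 and 135 in *KD2*. *Lbp* in *KD1* was lower by at least 10.8-fold, while in *KD2* it rose by 2.33 on the log2 scale (adjusted p = 3.4e-07 and 4.6e-08). *Hp* (haptoglobin) was lower by at least 3.68-fold in *KD1* and rose by 1.21 on the log2 scale in *KD2* (adjusted p = 0.00020 and 0.0025). *Orm1* (orosomucoid 1), at the floor in *WT* and *KD1*, was at least 4.40-fold higher in *KD2* than in *WT* (adjusted p = 0.00012).

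Among the globule genes, *Xdh* (ENSMUSG00000024066, chromosome 17, 73883895 to 73950196) rose in both lines. It had 1649, 2101 and 1525 counts in *WT*, 7163, 6944 and 6669 in *KD1* and 4140, 4638 and 3298 in *KD2*, and the 3 lines did not overlap in CPM. *WT* cultures averaged 80.9 ± 5.65 CPM (SD, n = 3), *KD1* cultures 269 ± 4.30 and *KD2* cultures 161 ± 6.51. The rise was 3.32-fold in *KD1* (log2 fold change 1.73, standard error 0.0632, adjusted p = 2.4e-11 from the edgeR test) and 1.99-fold in *KD2* (0.99, standard error 0.0626, adjusted p = 9.1e-09). *KD2* lay below *KD1* by a log2 fold change of -0.74 (standard error 0.0611, adjusted p = 1.1e-07), which is the opposite order of *KD1* and *KD2* from that of *Lcn2*. Without *WT* replicate 1 the *Xdh* values against *WT* were 1.76 and 1.02, and without *KD2* replicate 3 the *KD2* value stayed at 0.99. Of the 50-base windows in *Xdh* transcripts, 9.60% also occur in other genes, most often *Ppp2r5a*, and the treatment of such reads is not given in the sources used here. Adipocyte markers, 6 genes, summed to 0.634 to 0.679 CPM in *WT*, 2.91 to 3.47 in *KD1* and 0.541 to 1.01 in *KD2*. In *KD1* most of this was *Fabp4*, with 75, 53 and 71 counts, while *Adipoq*, *Lep* and *Plin1* were at or under the floor throughout. Their part in the *Xdh* result was not tested.

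*Mfge8* (ENSMUSG00000030605, chromosome 7, 79133768 to 79149060) rose in *KD2*. Its counts were 1202, 1661 and 1423 in *WT*, 1673, 1532 and 1568 in *KD1* and 2631, 3093 and 2664 in *KD2*. *WT* and *KD1* overlapped at 65.8 ± 3.99 and 61.7 ± 1.50 CPM (SD, n = 3), and every *KD2* culture was above both, at 113 ± 15.3 CPM. The log2 fold change was 0.78 in *KD2* (standard error 0.0851, adjusted p = 2.1e-06 from the edgeR test) and -0.09 in *KD1* (approximate 95% interval -0.26 to 0.08, adjusted p = 0.38). *KD2* was above *KD1* by 0.88 (standard error 0.0849, adjusted p = 5.5e-07). *KD2* replicate 3 was again the highest culture, at 131 CPM, and the *KD2* change against *WT* was 0.67 without it and 0.74 without *WT* replicate 1.

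*Plin2* (ENSMUSG00000028494, chromosome 4, 86648386 to 86670060) was nearly level. It had 1752, 2379 and 2031 counts in *WT*, 2543, 2441 and 2437 in *KD1* and 2598, 3097 and 2300 in *KD2*, which is 94.6 ± 4.73, 96.0 ± 2.20 and 107 ± 5.33 CPM (SD, n = 3). Its log2 fold change was 0.18 in *KD2* (standard error 0.0607, adjusted p = 0.019) and 0.02 in *KD1* (approximate 95% interval -0.10 to 0.14, adjusted p = 0.80), both from the edgeR test. Of 17 alternatives, 3 lost the *Plin2* call in *KD2*, with an adjusted p of 0.00093 to 0.13 over all of them, and *WT* replicate 1 was the 1 culture whose removal lost it (0.14, adjusted p = 0.070). Over all tested genes of chromosome 4, the median in *KD2* was 0.15.

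*Muc1* and *Btn1a1* were scarce. *Muc1* (ENSMUSG00000042784, chromosome 3, 89229057 to 89233381) had 12, 18 and 24 counts in *WT*, 9, 15 and 13 in *KD1* and 20, 24 and 19 in *KD2*. Scaled to depth, *KD1* was the lowest line at 0.482 ± 0.134 CPM (SD, n = 3), beside 0.835 ± 0.296 in *WT* and 0.847 ± 0.0757 in *KD2*. Its fall in *KD1* by 0.79 on the log2 scale (standard error 0.315, adjusted p = 0.045 from the edgeR test) was lost in 11 of 16 alternatives, whose adjusted p ran from 0.027 to 0.27. Without *WT* replicate 3, the highest *WT* culture, the value was -0.46 and its adjusted p 0.27. Without *KD1* replicate 1, the lowest, these were -0.57 and 0.17, and the call was also lost without *WT* replicate 2, *KD1* replicate 3, *KD2* replicate 1 or *KD2* replicate 2 (-0.88, -0.86, -0.79 and -0.77). Against *WT*, *Muc1* in *KD2* differed by 0.02 on the log2 scale (approximate 95% interval -0.54 to 0.57), and of 0.80 against *KD1* (adjusted p = 0.031), a call lost in 7 of 16 alternatives.

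*Btn1a1* (ENSMUSG00000000706, chromosome 13, 23456992 to 23465901) had 20, 19 and 24 counts in *WT*, 20, 15 and 18 in *KD1* and 21, 25 and 11 in *KD2*, or 0.984 ± 0.208, 0.684 ± 0.0823 and 0.740 ± 0.173 CPM (SD, n = 3). No *Btn1a1* comparison passed the threshold. The log2 fold change was -0.50 in *KD1* (approximate 95% interval -1.02 to 0.01, adjusted p = 0.12) and -0.36 in *KD2* (-0.87 to 0.14, adjusted p = 0.23), so a fall of up to about 2-fold in *KD1* lies within the interval at this depth.

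**Figure D2:**
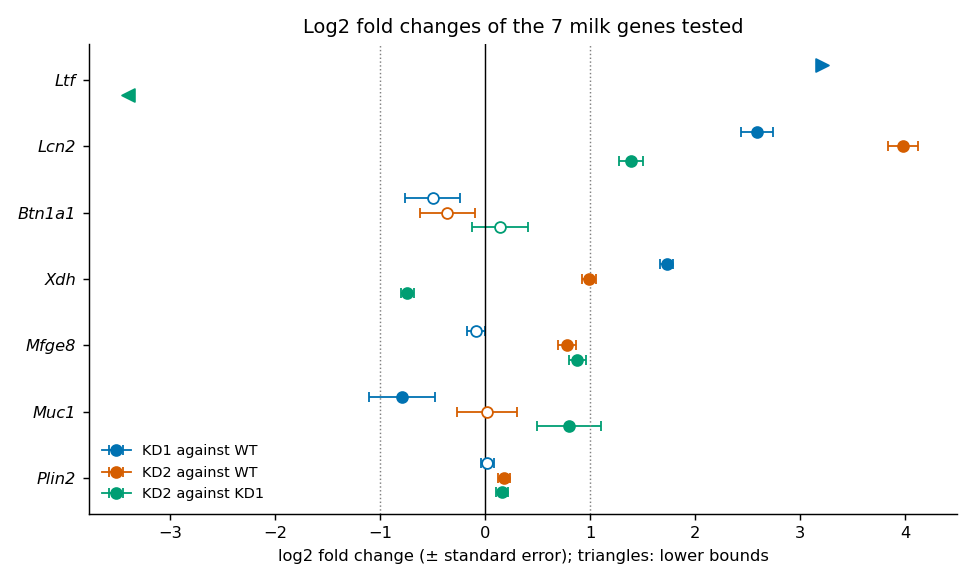
Log2 fold change (horizontal axis) of the 7 milk genes tested, in *KD1* against *WT*, *KD2* against *WT* and *KD2* against *KD1*; bars are standard errors, filled points have an adjusted p under 0.05, triangles are lower bounds against a line at the floor, and dotted lines mark a log2 fold change of 1 and -1. *Lcn2* lies right of 1 in all 3 comparisons, *Xdh* reaches 1.73 in *KD1* and 0.99 in *KD2*, and *Ltf*, with no point for *KD2* against *WT*, has opposite signs for *KD1* against *WT* and *KD2* against *KD1*.

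Counted over the 6 genes above the floor in every culture, 2 rose and 1 fell in *KD1*, where 26.9% and 30.0% of all genes tested did so at an adjusted p under 0.05. With an absolute log2 fold change above 1 required as well, 2 of the 6 were higher and 0 lower in *KD1*, beside 9.34% and 7.49% of all genes. In *KD2*, 4 of the 6 rose and 0 fell, beside 34.0% and 33.3%, and past the fold limit 1 was higher and 0 lower, beside 14.5% and 6.71%. Between the edited lines, 4 of the 6 were higher in *KD2* and 1 lower, beside 34.8% and 33.0%, and past the fold limit 1 was higher and 0 lower, beside 14.7% and 8.58%. The 6 genes had median log2 fold changes of -0.03 in *KD1* and 0.48 in *KD2*, where all genes had -0.03 and 0.01. Cultures did not overlap between *KD1* and *WT* for 4 of the 6, between *KD2* and *WT* for 4 and between *KD2* and *KD1* for 5, and the shares over all genes were 68.8%, 67.9% and 71.6%. With shares this high over all genes, and only 6 genes counted, these counts are not a result about the milk genes as a group. *KD1* and *KD2* were compared with the same *WT* cultures.

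Divided by the merged exon length of the gene, levels were ordered between genes. This length joins the exons of every GENCODE M21 transcript of a gene. For *Csn2* it joined 11 transcripts into 6926 bases in 2 merged exons. The order, and the share of tested genes below a gene, depend on this length. The paper names another release for its counting. In *WT*, *Plin2* was the highest at 26.9 ± 1.35 CPM per kb (SD, n = 3), followed by *Mfge8* at 14.0 ± 0.849, *Xdh* at 8.82 ± 0.616 and *Lcn2* at 1.52 ± 0.252, and none of these neighbours overlapped. *Plin2* stood above 84.6% of the genes tested and *Lcn2* above 31.7%. *Muc1* and *Btn1a1*, at 0.356 ± 0.126 and 0.239 ± 0.0506 CPM per kb, overlapped each other. In *KD1* the order of the first places was *Xdh* (29.3 ± 0.469), *Plin2* (27.3 ± 0.627), *Mfge8* (13.1 ± 0.319) and *Lcn2* (9.13 ± 0.380 CPM per kb), with no overlap between neighbours. *Ltf* in *KD1*, at 0.376 ± 0.109 CPM per kb, was above *Muc1* and *Btn1a1*, which overlapped there as well. In *KD2*, *Plin2* led at 30.5 ± 1.52, *Mfge8* and *Lcn2* overlapped at 24.1 ± 3.26 and 24.0 ± 4.17, and *Xdh* followed at 17.6 ± 0.710 CPM per kb. *Lcn2* thus moved from above 31.7% of the genes tested in *WT* to above 61.6% in *KD1* and 84.4% in *KD2*.

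**Figure D3:**
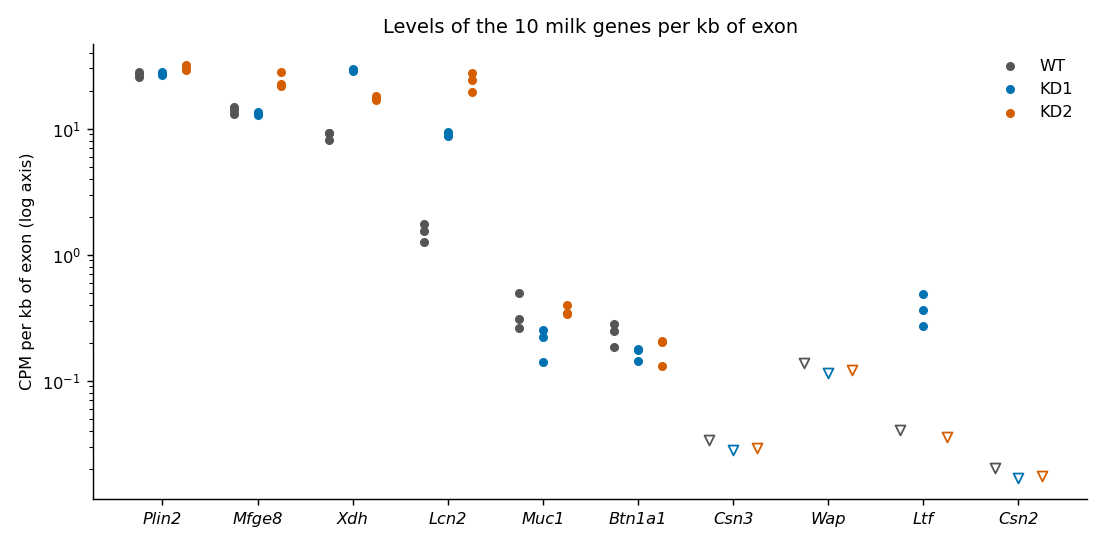
Level of each milk gene in CPM per kb of merged exon (log axis), ordered by the *WT* mean; points are the 3 cultures of a line, and open triangles give the floor of 3 counts, divided by exon length, where all cultures of a line were at or under it. *Plin2*, *Mfge8* and *Xdh* lead in *WT*, *Lcn2* climbs into their range in *KD2* at 24.0 CPM per kb, and the casein genes and *Wap* have triangles only.

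Lists of related genes were described by the same counts. Of 15 other milk proteins, 5 were tested, 7 were at or under the floor in every culture and 5 of those 7 had no count at all. *Pigr*, the receptor that carries IgA into milk, shared the pattern of *Ltf* and *S100a9*, with no count in *WT*, 35, 21 and 31 in *KD1* and 0, 1 and 1 in *KD2*, and *KD1* exceeded *WT* by at least 8.02-fold (adjusted p = 4.0e-06 from the edgeR test); it too passed the filter through *KD1* only. On the log2 scale *Clu* (clusterin) rose by 1.04 in *KD1* and by 2.62 in *KD2* (adjusted p = 2.5e-06 and 1.6e-10), *Tcn2* (transcobalamin 2) rose by 1.39 and 2.62 (adjusted p = 5.6e-05 and 3.2e-08), and the values of *Wfdc18*, a WAP-domain protein, were -0.02 and 2.11 (adjusted p = 0.95 and 1.5e-07). Without *Pigr*, 2 of the other 4 rose in *KD1* and 3 in *KD2*, and *Spp1* fell in both lines, and 4 genes are too few to set against the shares of all genes that changed.

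Of 21 genes of milk fat and lipid droplets, 15 were tested, and *Lpl*, which passed the filter through *KD2* only, is left out of the counts. Of the other 14, 5 rose and 4 fell in *KD1* and 4 rose and 6 fell in *KD2*, beside 26.9% and 30.0% of all genes in *KD1* and 34.0% and 33.3% in *KD2*. Their median log2 fold changes were 0.01 and -0.18, beside -0.03 and 0.01 over all genes. *Abcg2*, which pumps riboflavin into milk, rose in both lines, by 1.75 and 1.53 on the log2 scale (adjusted p = 1.0e-09 and 4.8e-09, the edgeR test). *Muc15*, a globule membrane mucin, rose in *KD1* by 1.11 and fell by 0.81 in *KD2* on the log2 scale (adjusted p = 7.9e-05 and 0.0024). *Lpl*, lipoprotein lipase, fell to the floor in *KD1* cultures, at 2, 2 and 1 counts, beside 12, 4 and 5 in *WT* and 12, 12 and 13 in *KD2* (adjusted p = 0.0095 in *KD1* and 0.23 in *KD2*). *Acsl1*, an acyl-CoA synthetase, fell by 0.92 in *KD1* (adjusted p = 1.9e-07) whereas the *KD2* value was 0.09 (adjusted p = 0.31).

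Of 17 lactogenic regulators and STAT5 targets, 16 were tested, and *Elf5* passed the filter through *KD2* only. Of the other 15, 7 rose and 4 fell in *KD1*, beside 26.9% and 30.0% of all genes, and 8 rose and 2 fell in *KD2*, beside 34.0% and 33.3%. Their median log2 fold changes were 0.15 and 0.34, beside -0.03 and 0.01 over all genes. *Elf5*, the transcription factor of alveolar cells, had 4, 4 and 7 counts in *WT*, 22, 12 and 6 in *KD1* and 35, 59 and 36 in *KD2*, which is 1.14 and 2.87 above *WT* on the log2 scale (adjusted p = 0.058 and 1.7e-05, the edgeR test). *Prlr*, the prolactin receptor, rose in *KD1* by 1.77 and fell by 0.56 in *KD2* (adjusted p = 2.6e-08 and 0.0028). *Xbp1*, a regulator of secretory capacity, rose by 1.46 and 0.73 (adjusted p = 1.1e-10 and 1.6e-07), and *Socs3*, a feedback inhibitor of cytokine signalling, by 1.50 and 1.08 (adjusted p = 4.1e-09 and 1.1e-07).

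Of 12 genes that act with the milk genes, as receptors, ligands or makers of the molybdenum cofactor of xanthine oxidoreductase, 11 were tested, of which *Slc22a17* passed the filter through *WT* only and *Lrp2* through *KD2* only. Of the other 9, 5 rose and 2 fell in *KD1*, beside 26.9% and 30.0% of all genes, and 7 rose and 2 fell in *KD2*, beside 34.0% and 33.3%. Their median log2 fold changes were 0.27 and 0.49, beside -0.03 and 0.01 over all genes. Of the lipocalin 2 receptors, *Slc22a17* had 29, 21 and 23 counts in *WT*, 6, 7 and 3 in *KD1* and 6, 5 and 8 in *KD2*. Its fitted fall was 2.42 in *KD1* and 2.13 in *KD2* on the log2 scale (adjusted p = 7.7e-05 and 0.00013, the edgeR test). *Lrp2* (megalin) had no count in *WT*, 2, 1 and 3 in *KD1* and 16, 18 and 16 in *KD2*, at least 4.84-fold higher in *KD2* than in *WT*. Each passed the filter through 1 line only, so its difference is not independent of the filter. *Itgb3*, the integrin chain that with *Itgav* binds MFG-E8, the product of *Mfge8*, fell by 2.54 in *KD1* and rose by 1.24 in *KD2* (adjusted p = 5.8e-09 and 8.2e-07). *Mocos*, which inserts the sulfur that xanthine oxidoreductase needs to be active, rose in both lines, by 0.87 and 1.20 (adjusted p = 1.7e-06 and 4.6e-08). It was higher in *KD2* than in *KD1* by 0.33, the opposite order from *Xdh*. The other cofactor genes did not rise in both lines. *Mocs2* rose by 0.33 in *KD1* and fell by 0.62 in *KD2*, and *Gphn* fell by 0.39 and rose by 0.19. *Mocs1* had 0.08 in *KD1*, not past the threshold, and rose by 0.62 in *KD2*.

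**Figure D4:**
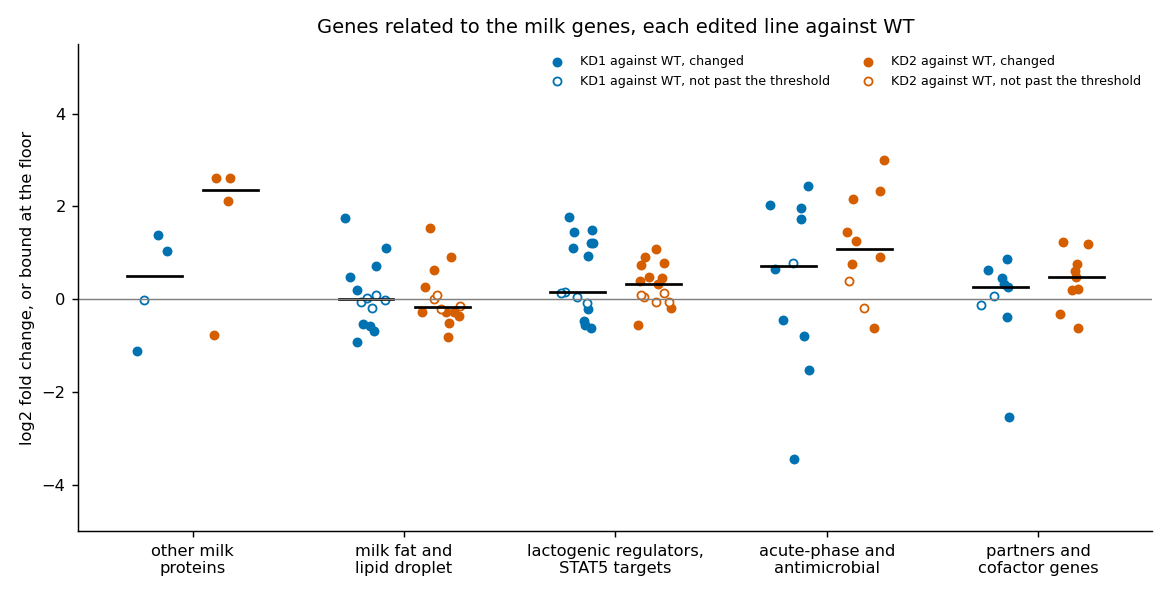
Log2 fold change against *WT* (vertical axis) of the tested genes of 5 lists related to the milk genes, in *KD1* and *KD2*; each point is a gene, filled where the adjusted p is under 0.05, a gene with 1 line at the floor is drawn at its bound, genes that passed the filter through 1 line only are left out, and bars are medians. The acute-phase genes spread on both sides of 0 in *KD1* and lie mostly above it in *KD2*, where their median is 1.09.

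The nearest tested protein-coding gene on each side of a milk gene was read as a description of the region. *Lcn2* lies 2.69 kb from *1110008P14Rik*, whose log2 fold changes were -0.04 for *KD1* and 1.41 for *KD2* (adjusted p = 0.85 and 7.5e-07, the edgeR test), and 7.64 kb from *Ptges2*, with -0.36 and -0.27 (adjusted p = 0.0065 and 0.028). *Xdh* lies between *Lclat1* (0.03 and -0.23) and *Memo1* (-0.01 and 0.20), 641 kb and 249 kb away, and the median of its chromosome was 0.01 in *KD1* and 0.28 in *KD2*. *Mfge8* lies 18.7 kb from *Acan*, which fell by 8.55 in *KD1* and by 1.19 in *KD2* on the log2 scale (adjusted p = 1.4e-13 and 2.0e-07), and 124 kb from *Abhd2*, which rose in *KD2* as *Mfge8* did (0.54, adjusted p = 2.9e-06, beside 0.13 for *KD1*). Both neighbours of *Ltf*, *Als2cl* at 119 kb and *Lrrfip2* at 74.8 kb, rose in *KD1*, where *Ltf* was high, by 1.15 and 0.76 (adjusted p = 6.0e-07 and 1.7e-07). In *KD2*, where *Ltf* was at the floor, *Als2cl* fell by 0.82 and *Lrrfip2* rose by 0.34 (adjusted p = 4.4e-05 and 0.00027). *Trim46*, 0.796 kb from *Muc1*, fell by 1.31 and 1.13 in *KD1* and *KD2* (adjusted p = 7.9e-06 and 2.2e-05), and *Mtx1*, on the other side, had 0.14 and 0.13. *Btn1a1* lies on chromosome 13, whose median log2 fold change in *KD2* was -0.66, beside -0.36 for *Btn1a1* itself. *Ramp3*, 19.9 kb from the silent *Wap*, fell by 2.60 in *KD1* and rose by 1.14 in *KD2* (adjusted p = 2.2e-09 and 1.6e-06), and the neighbours of *Plin2*, *Haus6* and *Dennd4c*, had 0.28 and 0.02 in *KD1* and -0.06 and -0.13 in *KD2*.

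**Figure D5:**
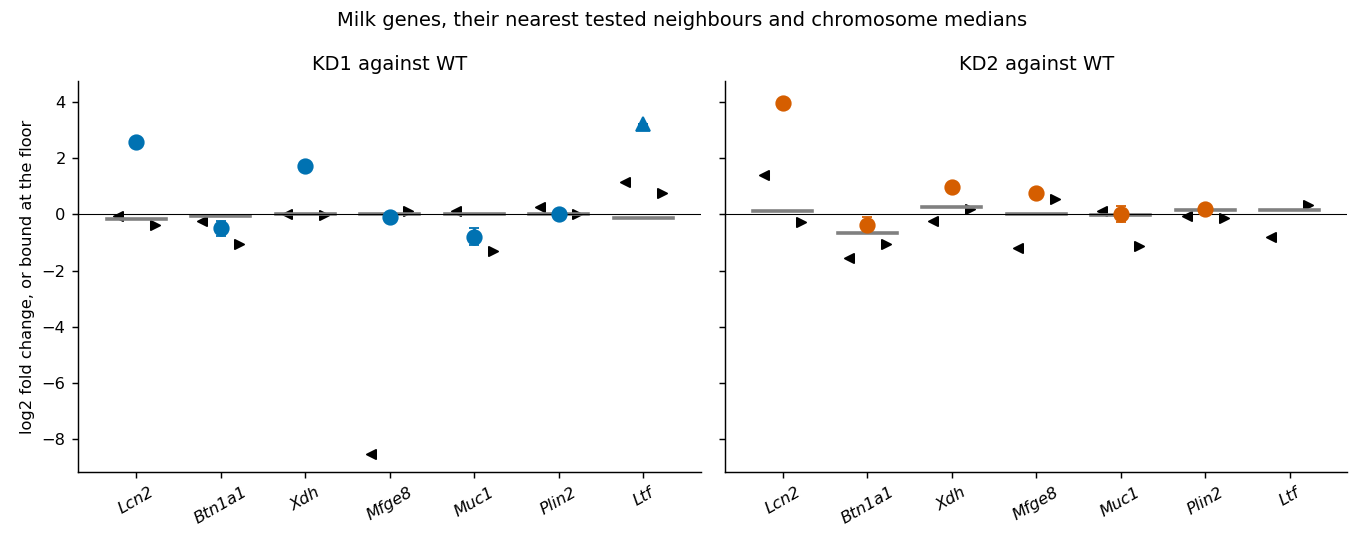
Log2 fold change (vertical axis) of the tested milk genes (coloured points with standard errors; the triangle is the bound of *Ltf*), of their nearest tested protein-coding genes at lower and higher coordinates (black left and right triangles) and the median of all tested genes on the chromosome (grey bars), for *KD1* and *KD2* against *WT*. *Lcn2* and *Xdh* lie above both neighbours in each panel, and the point of *Acan* at -8.55 lies far below *Mfge8* in *KD1*.

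Genes with the most similar profiles were taken as the 2 with the smallest root-mean-square difference in centred log2 CPM over the 9 cultures, among 11321 genes with a mean log2 CPM above 1. For *Lcn2* these were *Dlg4*, a synaptic scaffold, and *Xaf1*, an interferon-induced gene, with differences of 0.146 and 0.210. *Dlg4* had 2.50, 16.8 and 40.9 CPM in *WT*, *KD1* and *KD2*, and *Xaf1* 2.23, 12.6 and 35.5. For *Xdh* they were *Castor2* and *Nuak2* (0.0970 and 0.0979), with 18.2, 58.5 and 39.8 CPM and 5.90, 21.0 and 13.5 CPM. For *Ltf* they were *Cldn1*, a tight-junction claudin, and *Lif*, a cytokine of the interleukin 6 family (0.314 and 0.341). *Lif* had 64.5, 667 and 58.3 CPM and *Cldn1* 3.12, 31.2 and 2.79 CPM, so both were high in *KD1* and alike in *WT* and *KD2*. Because *Ltf* itself was at the floor in *WT* and *KD2*, its profile favours genes of this shape, and the likeness says little of *Ltf* in those lines. These are likenesses over 9 cultures of 3 lines and carry no test.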

How the data were processed

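Poly-A RNA from 9 HC11 cultures, 3 each of *WT*, *KD1* and *KD2*, was grouped by the sample labels. The authors deposited whole-number read counts per gene, without normalization, after trimming with fastp, removal of reads under an average quality of 20, mapping to GRCm38 with HISAT2 and counting over exons with featureCounts. The settings for strand and multi-mapping reads and the versions of these tools are not given in the sources used here. No member overlaps exons of another gene. Here, counts were tested with edgeR 4.0.16 in R 4.3.3 (quasi-likelihood test, TMM scaling, filterByExpr, 1 fit of 9 cultures), with Benjamini-Hochberg adjustment over 15253 genes. The fit was tested on simulated data in which 200 genes changed, in *KD1* alone. Far more genes changed in the real comparisons, so the simulation did not test scaling or error rates in that setting. "Rose", "fell" or "changed" means an adjusted p under 0.05. Nothing says that cultures of a line were grown independently, so p-values measure the spread between these samples, estimated over the 3 lines together. That spread was unlike between lines. Chi-square per degree of freedom between cultures was 1.37 to 1.81 in *KD1*, 3.38 to 13.1 in *WT* and 1.74 to 22.1 in *KD2*. Alternatives were DESeq2 1.42.0, 2 other scalings, 2 other filters, only the 6 cultures compared, thinned counts, a replicate block and leaving out each culture. Positions and exon lengths came from GENCODE M21 (GRCm38) and promoters from RefSeq. The members and lists were chosen with earlier results of these data known. Named from each list were the 4 changed genes with the largest change against *WT*, and the caseins and *Lalba*. The nearest tested protein-coding genes on each side, and the 2 genes of most similar profile, were named as well. *Spp1*, *Mocs1*, *Mocs2*, *Gphn*, single marker genes and the promoters of *Plin2*, *Mfge8*, *Muc1* and *Wap* fall outside that rule and were named after their values were seen.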

Additional observations from a re-analysis of the deposited data

Results flagged for a closer look

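For 5 of the 6 milk genes above the floor in every culture, the change against *WT* differed between the edited lines, by edgeR's direct test of *KD2* against *KD1*. Over all genes tested, 34.8% were higher and 33.0% lower in that comparison, so the number of genes is not a result about the milk genes. The log2 fold change was 1.39 for *Lcn2*, -0.74 for *Xdh*, 0.88 for *Mfge8*, 0.80 for *Muc1* and 0.16 for *Plin2*. *Ltf* passed the expression filter through *KD1* only, so its difference is not independent of the filter. Its fitted value was -6.14 with *KD2* at the floor, where the bound is at least 10.6-fold lower. *Lcn2* and *Xdh* rose in both lines, *Lcn2* more in *KD2* and *Xdh* more in *KD1*. The *Muc1* difference lost its call in 7 of 16 alternatives and the *Plin2* difference in 5 of 17.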

How the results depend on the processing

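The direction and side of the threshold of *Lcn2*, *Xdh* and *Mfge8* in all 3 comparisons held in all 17 alternatives. *Ltf* passed the filter through *KD1* only and was not tested at 10 counts or more in every culture, so its calls say nothing of stability. Library size alone moved the median of all genes by 0.11 in *KD2* against *WT* and by 0.13 against *KD1*. Over the 7 milk genes tested, *Ltf* included, the number lower in *KD1* than in *WT* went from 1 to 0 at 10 counts or more in every culture. There *Muc1*, with 9 counts in *KD1* replicate 1, was not tested. The number also went to 0 with DESeq2, with median-of-ratios size factors, with thinned counts and in a fit of only the 6 cultures compared. It was 0 to 1 on leaving out single cultures, and 0 without *WT* replicate 2 or 3, *KD1* replicate 1 or 3, or *KD2* replicate 1 or 2. With no filter it was 1, but the gene was *Csn3* and not *Muc1*, and 1 gene was then past the fold limit. The number past the fold limit and higher in *KD2* than in *WT* went from 1 to 2 with DESeq2, with both other scalings, at 10 counts or more and without *WT* replicate 1, *WT* replicate 2 or *KD2* replicate 2 (range 1 to 2), because *Xdh* at 0.99 lies at the limit. Genes higher in *KD2* than in *KD1* numbered 2 with no filter and 2 to 4 on leaving out cultures, with 2 reached without *KD1* replicate 1, *KD1* replicate 3 or *KD2* replicate 1. Past the fold limit they numbered 2 with library size alone. Genes lower in *KD2* than in *KD1* went from 2 to 1, and those past the fold limit from 1 to 0, at 10 counts or more, which drops *Ltf*. For the lists, counted here over every gene tested, 10 counts or more in every culture gave 3 acute-phase genes lower in *KD1* than in *WT*, 3 higher in *KD2* than in *KD1* and 0 other milk proteins lower in *KD2* than in *KD1*, and no filter gave 2 of the last. Library size alone gave 1 lactogenic regulator lower in *KD2* than in *WT* and 3 acute-phase genes lower in *KD2* than in *KD1*. Small values turned sign, all of them not called: *Plin2* in *KD1* was -0.02 without *WT* replicate 1, in a range of -0.02 to 0.08 over the left-out cultures; *Ltf* in *KD2* against *WT* was 1.84, 0.43 and 0.19 without *WT* replicate 2, *KD2* replicate 2 and *KD2* replicate 3 (range -1.99 to 1.84); and *Muc1* in *KD2* against *WT* was -0.01 with no filter and -0.14, -0.07 and -0.05 without *WT* replicate 1, *WT* replicate 2 and *KD2* replicate 3 (range -0.14 to 0.35). The cause of these shifts was not tested where none is named. Deviations from the line means correlated at -0.0652 to 0.0789 between same-numbered cultures of different lines. Between differently numbered cultures the range was -0.101 to 0.107. Whether same-numbered cultures shared a preparation was not tested, because 3 cultures per line are too few for these correlations to show it. The fit with the replicate block changed no call of a milk gene. With it, the log2 fold change of *Lcn2* was 2.59 and 3.97 and that of *Xdh* 1.73 and 0.99 in *KD1* and *KD2*. Over the 7 genes tested, *Ltf* included, those higher in *KD1* and *KD2* numbered 3 and 4 as they did without the block. At 9 to 25 counts per culture, *Muc1* and *Btn1a1* are limited by depth.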
